A study of Homo sapiens with 6 samples.

Results

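The tripartite motif (TRIM) family of ubiquitin ligases was followed in PC9 cells with and without knockdown of RBM10. Members were taken as the rows of the gene table whose symbol begins with TRIM and a digit, with 2 family members left out and not reported here. This gave 61 members of 16306 genes, of which 60 are annotated as protein coding and 1, TRIM16L, as a transcribed pseudogene. PC9 is an established human lung adenocarcinoma line that carries an activating EGFR deletion, and every library comes from it. The 3 sh-NC libraries (replicates 1, 2 and 3) carried a negative control shRNA and the 3 shRBM10 libraries an shRNA against RBM10, an RNA-binding splicing regulator. The study's methods give 2 RBM10 shRNAs and the labels do not say which was used. The shRBM10 libraries are called A, B and C, where A is replicate 1 and the columns of B and C match no sample title, so they were used by group only. Nothing in the labels says that replicates are separate cultures, so p-values measure the spread between these libraries, which may be technical. No treatment or time point is given.

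TRIM proteins share an N-terminal arrangement of a RING finger, 1 or more B-boxes and a coiled coil. The RING recruits an E2 enzyme loaded with ubiquitin, the coiled coil lets the protein pair in antiparallel fashion, and the C-terminal domain chooses the substrate. Many members carry a PRYSPRY domain there and act in innate immunity, where some restrict retroviruses and others place ubiquitin chains on the RNA-sensing machinery. Others carry a PHD finger with a bromodomain and read chromatin, and a small muscle group, the MuRF proteins, binds microtubules and sarcomeres. Several members are induced by interferon.

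RBM10 itself had 1578, 864 and 1628 counts in sh-NC against 523, 537 and 700 in shRBM10, so the groups did not overlap and lay in the direction of the labels. Its log2 fold change was -1.24 (SE 0.23, adjusted p = 0.10 by edgeR's quasi-likelihood test). Total counts per library ran from 16606390 to 18864243. The TMM scaling factor of sh-NC replicate 2 was 0.738, against 1.03 to 1.08 in the other 5 libraries. The 6 epithelial markers (EPCAM, CDH1 and 4 keratins) summed to 29950 to 55480 CPM (counts scaled to a common library size) in sh-NC against 23980 to 35480 in shRBM10. The 4 leukocyte markers with a row summed to at most 2.01 CPM in any library and the 3 fibroblast markers to at most 11.1. The labels' protocol text names 2 library kits and assigns neither to a library, so whether libraries differed in kit is unknown. It also speaks of retinas, and the 3 retinal markers with a row summed to at most 8.65 CPM, nearly all from NRL. In such bulk RNA, fewer cells of a type and less RNA per cell cannot be told apart.

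Expression of the family in sh-NC cells was concentrated in a few members. TRIM16L had the highest level per length, 231 ± 18.9 TPM (a length-scaled share of transcripts, SD, n = 3), followed by TRIM16, a galectin-binding protein of the response to damaged lysosomes, with 147 ± 6.23 TPM. TRIM16L is a near-identical copy of part of TRIM16, so how reads divide between these genes is uncertain. TRIM29, a member without a RING that is known from stratified epithelia, had 101 ± 20.6 TPM. TRIM11, a ligase and chaperone for misfolded proteins, had 53.5 ± 21.9 TPM and TRIM26, a regulator of IRF3 signalling, 42.6 ± 13.3 TPM. TRIM16L stood above TRIM16 in each of the 3 libraries. TRIM11 also stood above TRIM26 in each library, in replicate 2 with 28.3 against 27.3 TPM. TRIM26 and TRIM8, next in order with 39.8 ± 17.9 TPM, changed places between libraries.

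**Figure D1:**
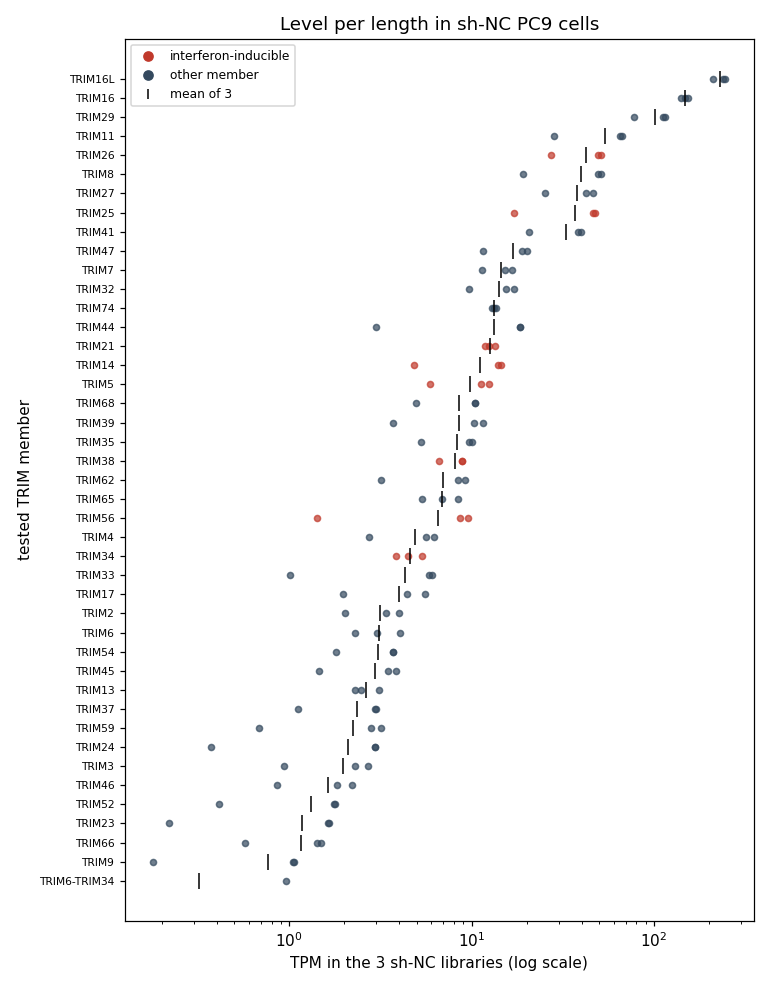
Levels of the 43 tested TRIM members in the 3 sh-NC libraries, in TPM on a log axis, ordered by their mean (black tick). TRIM16L, TRIM16 and TRIM29 stand at 101 TPM or more on average. Red points are interferon-inducible members, and 2 values of TRIM6-TRIM34 at 0 are not drawn.

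The low end held many members with almost no reads. Of the 61 members, 43 passed edgeR's filter on low counts, with 228 to 37538 counts over the 6 libraries, and 18 did not, with 1 to 47. Of those 18, 14 had 10 counts or fewer in all libraries together. They include TRIM55 (MuRF2, a muscle relative of TRIM54) with 1 count, TRIM72 (MG53, a muscle membrane repair protein) with 7, TRIM71 (a stem cell RNA-binding protein) with 4, TRIM58 (an erythroid ligase) with 2 and TRIM67 (a neuronal member) with 1. The interferon-inducible TRIM69 had 13 counts, TRIM36 18 and the readthrough row TRIM39-RPP21 47. TRIM10, TRIM15, TRIM31, TRIM42, TRIM43, TRIM49D1, TRIM60, TRIM61, TRIM64B and TRIM73 complete the group, and TRIM73 shares reads with its near copy TRIM74. None of the 18 was called when the filter was removed. Without it, 2 of them had, on few counts, an unadjusted p under 0.05 with a log2 fold change over 1 in size. Among all 61 members 7 then passed these limits, which is 11.5%, beside 10.9% of 16283 genes. TRIM73, with 0, 0 and 2 counts in sh-NC against 8, 2 and 5, lay higher, and TRIM39-RPP21, with 5, 9 and 22 against 5, 0 and 6, lay lower. The muscle member TRIM63 had no row in the gene table.

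With RBM10 knocked down, the family showed no common direction. Among the 43 tested members, 20 had a log2 fold change above 0 and 23 below, and 37 lay within 1 of 0 in either direction. The median was -0.024, beside 0.027 over all 12620 genes tested. TRIM54, a muscle RING finger protein, lay lowest, and TRIM38, TRIM33, TRIM24 and TRIM52 lay highest among the members past an unadjusted limit. That limit is p under 0.05 with a log2 fold change over 1 in size.

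After Benjamini-Hochberg adjustment over all genes, edgeR's quasi-likelihood test called 0 of the 43 members, beside 0.0158% of all genes (2 of 12620). At an unadjusted p under 0.05 there were 10 members, beside 24.3% of all genes, which is again near the background. DESeq2 called 1 member, TRIM54, beside 4.64% of all genes that received an adjusted p, and limma-voom called 0. Past the unadjusted limit lay 5 of the 43 members, which is 11.6%, and the share of all genes was also 11.6%. In the higher direction these were 4 members beside 10.1% of all genes, and in the lower direction 1 member beside 1.53%. The share of members past the limit was thus that of the genome, and so is not a result about the family. Without sh-NC replicate 2, TRIM38 and TRIM54 were past the limit, beside 6.35% of all genes, and without library A TRIM54 alone, beside 4.51%. Without library B there were 3 members (8.31% of genes), without sh-NC replicate 3 there were 6 (14.9%), and without library C or sh-NC replicate 1 there were 8 (16.8% and 16.0%). The number of members past the limit thus moved with that of all genes.

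**Figure D2:**
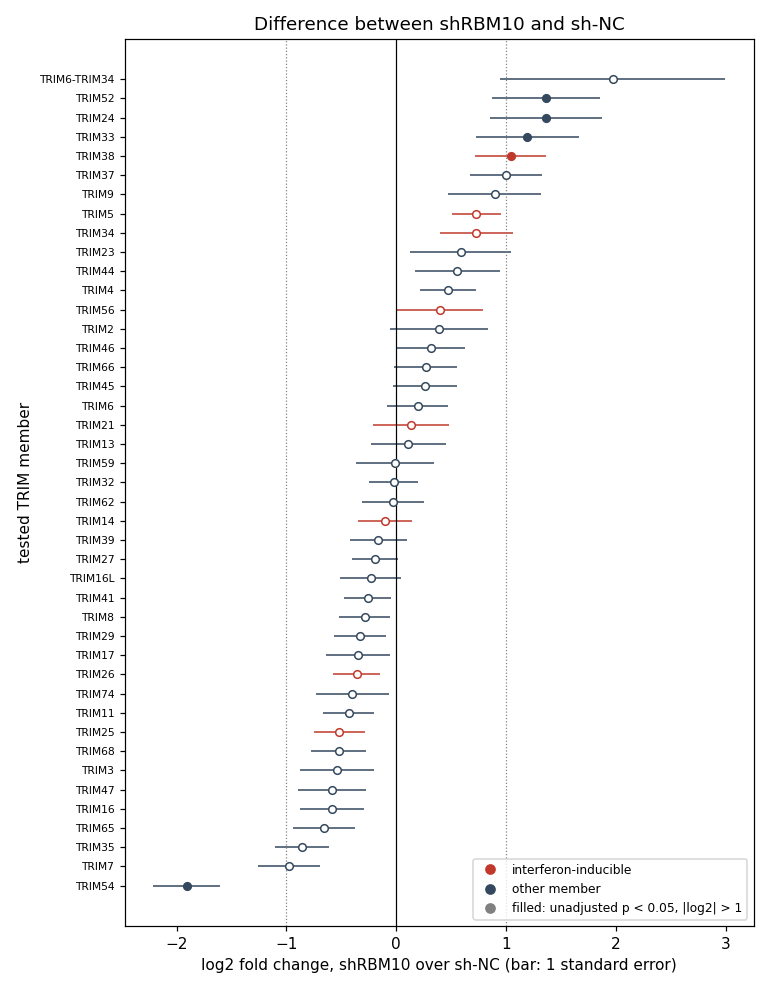
Log2 fold change of each tested member, shRBM10 over sh-NC, with 1 standard error (6 libraries). Filled points are the 5 members past the unadjusted limit, and dotted lines mark a log2 fold change of 1 in size. TRIM54 lies at -1.91, apart from the next lowest member.

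TRIM54 (MuRF3) ties the microtubule network to the sarcomere in striated muscle and works with its relatives in muscle protein turnover. It was a low transcript in PC9 cells, with a mean of 3.07 TPM in sh-NC. Counts were 91, 53 and 82 in sh-NC against 18, 20 and 24 in shRBM10. Every sh-NC library lay above every shRBM10 library on the raw and on the normalized scale, where the means were 4.16 ± 0.29 and 1.10 ± 0.13 CPM (SD, n = 3). The log2 fold change was -1.91 (SE 0.30), with an adjusted p = 0.089 by edgeR's quasi-likelihood test and 0.00080 by DESeq2. It was the largest in size of the members below 0 and the only one of them past the unadjusted limit.

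The difference in TRIM54 kept its size when libraries were left out, with log2 fold changes from -2.06 to -1.85. Its adjusted p then ran from 0.054 to 0.45 by edgeR's quasi-likelihood test, so it was not called. It stayed past the unadjusted limit in each of the 14 alternatives computed. A two-sided exact permutation test of the normalized values gave p = 0.1, the smallest that 3 against 3 allows, as it must where groups do not overlap. TRIM54 lies on chr2:27282429-27307435 (GRCh38.p14), and its end overlaps the end of UCN, the gene of the peptide urocortin, by 36 bases. UCN had 3, 1 and 3 counts in sh-NC against 4, 3 and 10 in shRBM10, too few to be tested. None of the neighbours CAD, SLC30A3, MPV17 and GTF3C2 was past the unadjusted limit, the lowest being CAD with a log2 fold change of -0.59 (SE 0.26), and DNAJC5G had 3 counts in all.

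Most TRIM54 reads were assigned to transcript NM_187841, with 63, 38 and 47 counts in sh-NC against 16, 13 and 14 in shRBM10. This transcript therefore lay lower in each shRBM10 library, as the gene did. The markers of striated muscle were near 0 in PC9 cells: ACTA1, CKM, DES and TNNT2 had at most 5 counts in any library. Only TTN, the giant sarcomeric protein, passed the filter, with 33, 26 and 40 counts in sh-NC against 164, 60 and 40 in shRBM10. Its log2 fold change was 1.38, in the direction opposite to TRIM54, and the summed muscle markers ran from 1.93 to 2.01 CPM in sh-NC and from 2.30 to 9.33 in shRBM10. The part of muscle-type expression in the TRIM54 difference was not tested.

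**Figure D3:**
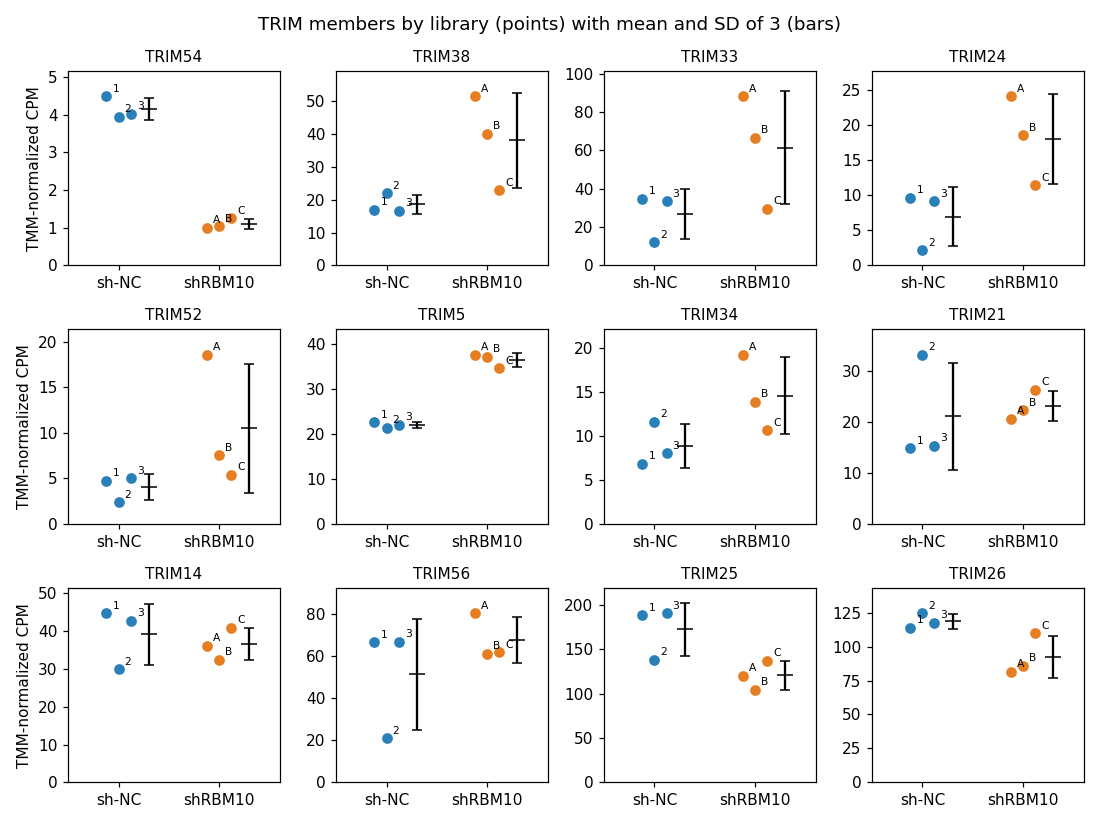
TMM-normalized CPM of 12 members in each library (points, labelled 1 to 3 and A to C) with the mean and SD of 3 libraries (black bars, each axis starting at 0). The TRIM54 groups are far apart, with a mean of 4.16 CPM in sh-NC and 1.10 in shRBM10, and in TRIM33, TRIM24 and TRIM56 sh-NC replicate 2 lies well under replicates 1 and 3.

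Of the 9 interferon-inducible members, 8 were tested, and they did not move in 1 direction. Of the 8, 5 had a log2 fold change above 0 and 3 below, from -0.52 to 1.04, with a median of 0.26 beside -0.027 for the 35 tested other members. Past the unadjusted limit lay 1 of the 8 (12.5%), TRIM38, and 4 of the 35 others (11.4%), beside 11.6% of all genes. None of either group was called by edgeR after adjustment, and 2 of the 8 and 8 of the 35 had an unadjusted p under 0.05, beside the same 24.3%. Groups did not overlap in the higher direction in 2 of the 8 (TRIM5 and TRIM38) and in the lower direction in 2 (TRIM25 and TRIM26). Over all genes these shares were 13.8% and 16.2%.

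As a summary per library, the median log2 distance of the 8 members from the sh-NC average was -0.010, 0.015 and -0.005 for sh-NC replicates 1 to 3, against 0.41, 0.30 and 0.30 for libraries A to C. For the 35 others it was 0.076, -0.15 and -0.002 for sh-NC, against -0.18, -0.14 and -0.036. The median of the interferon-inducible members was thus higher in each shRBM10 library, although 3 of the 8 had a log2 fold change below 0. That of the others lay between -0.18 and -0.036 in shRBM10, beside -0.15 in sh-NC replicate 2. The median of the 8 was 0.19 without library C. No test was made of the difference between both lists. Because each member is measured from its own sh-NC average, sh-NC medians lie near 0 partly by construction. Single members spread more, as in replicate 2 for TRIM21 (33.2 CPM beside 14.9 and 15.3) and TRIM56 (21.0 beside 66.5 and 66.7).

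TRIM38 restrains Toll-like receptor and TNF signalling by targeting adaptors such as the TAB proteins. It had 344, 295 and 338 counts in sh-NC against 921, 767 and 436 in shRBM10. All shRBM10 libraries were above all sh-NC libraries, but on the CPM scale library C (22.8) was close to sh-NC replicate 2 (21.98). The log2 fold change was 1.04 (SE 0.32, adjusted p = 0.16 by edgeR's quasi-likelihood test), and 0.76 to 1.26 with 1 library left out.

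TRIM5, the factor that binds incoming retroviral capsids, had 22.7, 21.4 and 22.1 CPM in sh-NC against 37.7, 37.2 and 34.7 in shRBM10. The groups did not overlap, and the gap between them was wider than the range of either. The log2 fold change was 0.73 (SE 0.22, adjusted p = 0.15 by edgeR's quasi-likelihood test), below the fold limit, and 0.29 with a GC trend removed from each library. TRIM34, its neighbour and partner in capsid restriction, had 6.86, 11.6 and 8.05 CPM in sh-NC against 19.3, 13.9 and 10.7 in shRBM10, with library C inside the sh-NC range. Its log2 fold change was also 0.73 (SE 0.33), and 0.36 with the GC trend removed or 0.48 without library A.

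The readthrough row TRIM6-TRIM34 had 47, 0 and 0 counts in sh-NC against 52, 80 and 49 in shRBM10. It shares exons, and so reads, with TRIM6 and TRIM34, and its log2 fold change of 1.97 (SE 1.02, adjusted p = 0.25 by edgeR's quasi-likelihood test) rests on sh-NC libraries at 0. Without sh-NC replicate 1 it was called, with an adjusted p = 0.0080, with both remaining sh-NC libraries at 0. TRIM6, which makes free ubiquitin chains for interferon signalling, had a log2 fold change of 0.20 (SE 0.28).

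Of the interferon-inducible signalling ligases, TRIM25 and TRIM26 lay lower in every shRBM10 library. TRIM25, which ubiquitinates the sensor RIG-I, had 188, 138 and 191 CPM in sh-NC against 121, 104 and 137 in shRBM10. These groups did not overlap, although sh-NC replicate 2 and library C lay close together, and the log2 fold change was -0.52 (SE 0.23, adjusted p = 0.21 by edgeR's quasi-likelihood test). TRIM26 had 114, 125 and 117 CPM in sh-NC against 81.5, 85.7 and 110 in shRBM10, with a log2 fold change of -0.36 (SE 0.22).

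TRIM21, the cytosolic antibody receptor, had 14.9, 33.2 and 15.3 CPM in sh-NC against 20.6, 22.3 and 26.3 in shRBM10. The shRBM10 libraries lay between sh-NC replicate 2 and the other sh-NC libraries, and the log2 fold change was 0.13 (SE 0.35), with a value below 0 when sh-NC replicate 1 or 3 was left out. TRIM56, a ligase of STING and TLR3 signalling, had 66.5, 21.0 and 66.7 CPM in sh-NC against 80.4, 61.1 and 61.7 in shRBM10. Its log2 fold change of 0.40 (SE 0.39) was -0.062 without sh-NC replicate 2, so its sign rests on that library. TRIM14, a mitochondrial adaptor of MAVS that lacks a RING, had overlapping groups and a log2 fold change of -0.10 (SE 0.25).

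The promoters of the interferon-inducible members are shown because the core of the element bound by interferon-activated factors, GAAA followed after 2 bases by a second GAAA, was common in them. RefSeq windows of 250 bases before to 50 after each start (GRCh38.p14) were searched on either strand, and 6 of the 9 members held a match, beside 3 of 39 other members with a window, 4.38% of all genes with a window and 3.57% of all windows. Capitals mark the match, read 5′ to 3′ on the strand of the gene, so that a match on the opposite strand reads as TTTC.
TRIM5: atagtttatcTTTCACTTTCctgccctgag
TRIM34: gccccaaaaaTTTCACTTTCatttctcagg
TRIM21: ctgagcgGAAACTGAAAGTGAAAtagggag
TRIM26: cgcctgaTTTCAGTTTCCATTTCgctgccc
TRIM14: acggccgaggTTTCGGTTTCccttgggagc
TRIM69: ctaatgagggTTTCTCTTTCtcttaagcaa

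These stretches lie at chr11:5685082-5685111 (minus strand) for TRIM5, chr11:4393663-4393692 (minus) for TRIM21, chr6:30213578-30213607 (minus) for TRIM26 and chr9:98119229-98119258 (minus) for TRIM14. On the plus strand lie those of TRIM34, chr11:5624901-5624930, and TRIM69, chr15:44736456-44736485. In TRIM21 and TRIM26 2 matches overlap. The first matched base stood 27 bases before the annotated start in TRIM5, 90 in TRIM34, 194 in TRIM26, 26 in TRIM14 and 62 in TRIM69, and at base 18 after it in TRIM21. The 5 tested members with a match had log2 fold changes of 0.73 (TRIM5), 0.73 (TRIM34), 0.13 (TRIM21), -0.10 (TRIM14) and -0.36 (TRIM26). The 3 without a match, TRIM38, TRIM56 and TRIM25, spanned 1.04 to -0.52, so the ranges overlapped. The other members with a match were TRIM2, TRIM16 and TRIM44. A match is a description of letters, and binding was not measured.

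The chromatin readers TRIM24, TRIM33 and TRIM66, which carry the PHD finger and bromodomain, all had a log2 fold change above 0. Of these 3, 2 were past the unadjusted limit, beside 10.1% of all genes in the higher direction. With the GC trend removed, their median went from 1.195 to 0.45, and none was past the limit. TRIM33 (TIF1 gamma), a SMAD-binding ligase of TGF-beta signalling, had 707, 161 and 682 counts in sh-NC against 1581, 1276 and 566 in shRBM10. Libraries A and B were high, library C lay within the sh-NC range, and sh-NC replicate 2 was far below its group. The log2 fold change was 1.19 (SE 0.47, adjusted p = 0.18 by edgeR's quasi-likelihood test) and 0.76 without sh-NC replicate 2.

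TRIM24 (TIF1 alpha), a coregulator of nuclear receptors, had 195, 29 and 186 counts in sh-NC against 433, 357 and 219 in shRBM10. The groups did not overlap, but sh-NC replicate 2 was again far below the rest. The log2 fold change was 1.36 (SE 0.51, adjusted p = 0.17 by edgeR's quasi-likelihood test), and 0.86 without that library. TRIM66, a testis-enriched relative, had 0.27 (SE 0.29).

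TRIM52, a short member that ends after its B-box, had 96, 32 and 102 counts in sh-NC against 333, 145 and 103 in shRBM10. On the CPM scale library A stood at 18.6, B at 7.56 and C at 5.38, against 5.01 for the highest sh-NC library. The groups did not overlap, and the difference rested mostly on library A. The log2 fold change was 1.37 (SE 0.49, adjusted p = 0.17 by edgeR's quasi-likelihood test) and 0.67 at its lowest with 1 library left out.

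Of the 22 tested members of the PRYSPRY class, 16 lay below 0, beside 6106 of all 12620 genes tested. Their median log2 fold change was -0.25, beside 0.027 over all genes, and -0.16 with the GC trend removed. This class leaves out TRIM9 and TRIM46, which carry the domain but were classed apart, and both lay above 0. With them 16 of 24 lay below 0, and the median was -0.21, or -0.14 with the GC trend removed. The 6 tested members known to lack a RING, TRIM14, TRIM16, TRIM16L, TRIM29, TRIM44 and TRIM66, had a median of -0.17, and none was past the unadjusted limit. With the GC trend removed that median was 0.0010. Of the abundant members, TRIM16 had 256, 473 and 263 CPM in sh-NC against 189, 228 and 243 in shRBM10. Its groups did not overlap, sh-NC replicate 2 was the highest library, and the log2 fold change was -0.59 (SE 0.29, adjusted p = 0.23 by edgeR's quasi-likelihood test). Without sh-NC replicate 2 it was -0.32, and that of TRIM16L -0.00047. TRIM16L, TRIM29 and TRIM11 had overlapping groups and log2 fold changes of -0.23 (SE 0.28), -0.33 (SE 0.24) and -0.43 (SE 0.24).

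In all, groups did not overlap in 16 of the 43 members, 8 higher and 8 lower beside the 13.8% and 16.2% of all genes. The exact permutation test gave each of the 16 its smallest p, as it must where groups do not overlap. Higher in shRBM10, beside those already given, were TRIM4 (a RIG-I ligase), TRIM9 (a neuronal microtubule-associated member) and TRIM37 (a ligase of centrosomes and peroxisomes). Lower were TRIM7, TRIM35, TRIM65 (a ligase of the sensor MDA5) and TRIM68. TRIM7 and TRIM35 had log2 fold changes of -0.98 (SE 0.28) and -0.86 (SE 0.25), under the fold limit. Each had an adjusted p = 0.15 by edgeR's quasi-likelihood test, and 0.038 and 0.041 by DESeq2. With the GC trend removed the values were -0.77 and -0.72. The 8 members on the short arm of chromosome 11 (TRIM3, TRIM5, TRIM6, TRIM6-TRIM34, TRIM21, TRIM34, TRIM66 and TRIM68) included none past the unadjusted limit and 1, TRIM5, with an unadjusted p under 0.05. Of the 8 on the short arm of chromosome 6, 4 were tested (TRIM26, TRIM27, TRIM38 and TRIM39) and TRIM38 was past it. The remaining tested members, TRIM2, TRIM8, TRIM13, TRIM17, TRIM23, TRIM32, TRIM41, TRIM44, TRIM45, TRIM46, TRIM47, TRIM59, TRIM62 and TRIM74, had, together with TRIM3, TRIM27 and TRIM39, log2 fold changes from -0.58 to 0.59.

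GC content and single libraries moved with these values. Over the 43 members, the log2 fold change correlated with the GC content of the transcript with Pearson's r = -0.584, and over 12343 genes with r = -0.575, genes sharing the same 6 libraries. The higher members TRIM33, TRIM38, TRIM24 and TRIM52 had 39.0% to 45.1% GC, and TRIM54 59.4%. When a GC trend was removed from each library, TRIM54 kept -1.63 and TRIM9 stood at 1.02, and these were the members past the unadjusted limit. That is 1 member higher beside 2.37% of genes and 1 lower beside 2.21%. TRIM9 had 65, 13 and 63 counts in sh-NC against 97, 85 and 75 in shRBM10. With the trend kept, its log2 fold change was 0.90 (SE 0.42), and 0.46 without sh-NC replicate 2.

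Without the GC trend the values of TRIM38, TRIM33, TRIM24 and TRIM52 were 0.30, 0.45, 0.80 and 0.97, all under the fold limit. Those of TRIM26, TRIM29 and TRIM11 were -0.13, -0.051 and -0.23, nearer to 0 than with the trend. The median of the 8 interferon-inducible members was 0.25 and that of the others -0.10. Library C lay nearest to sh-NC in most members, as the lowest shRBM10 library in 13 of the 20 members above 0 and the highest in 21 of the 23 below 0. Replicate 2 was the lowest sh-NC library in 25 of the 43 and the highest in 17. The part of GC content or of these libraries in the differences was not tested beyond these values.

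Relative use of transcripts within a gene could be tested in 34 members with at least 2 kept transcripts. None was called by a Simes test with Benjamini-Hochberg adjustment in edgeR, beside 0.0958% of 8348 genes. TRIM35 had the smallest unadjusted Simes p of these members, followed by TRIM37 with 0.12. TRIM35, named here after its value was seen, is a ligase of pyruvate kinase M2. Its transcript NM_001362813 had 25, 19 and 19 counts in sh-NC against 0 in each shRBM10 library, and its main transcript NM_171982 had 538, 394 and 497 against 286, 242 and 348. Both thus lay lower in every shRBM10 library. The Simes p was 0.0035 (adjusted p = 0.35 by edgeR), while edgeR's gene-level F test called the gene. The share of all genes called by that F test is not given here, so its call has no background beside it. Reads divide between these transcripts only by estimate, so a count of 0 can be a failed assignment.

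The partners of the family gave context. TRIM proteins under other symbols, MID1, MID2 and PML, had log2 fold changes from -0.041 to 0.58, none past the unadjusted limit. MEFV had too few counts to be tested. The 11 E2 enzymes that supply ubiquitin to RING ligases had a median of -0.067 and none past the limit, with UBE2V2 alone at an unadjusted p under 0.05 (log2 fold change 0.65). Over all genes these shares were 11.6% and 24.3%.

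Of 16 partners in RNA sensing, 5 were past the unadjusted limit in the higher direction, beside 10.1% of all genes. In the lower direction there were 0, beside 1.53%. Their median was 0.47, beside 0.027 over all genes tested. The sensor RIG-I (DDX58), a substrate of TRIM25, had 213, 62 and 246 counts in sh-NC against 1363, 928 and 402 in shRBM10. Every shRBM10 library lay above every sh-NC library, and the log2 fold change was 2.41 (SE 0.50, adjusted p = 0.12 by edgeR's quasi-likelihood test, 0.00012 by DESeq2). The sensor MDA5 (IFIH1), a substrate of TRIM65, had 176, 30 and 140 counts in sh-NC against 690, 632 and 319 in shRBM10, with a log2 fold change of 2.30 (SE 0.50).

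The kinases TBK1 and MAP3K7 and the TRIM38 substrate TAB2 had values of 1.20, 1.28 and 1.24, each without overlap between groups. Library C was close to the highest sh-NC library, with 12.65 against 12.29 CPM for TBK1, 12.34 against 11.85 for MAP3K7 and 33.5 against 31.7 for TAB2. In each of these genes sh-NC replicate 2 was the lowest library. With the GC trend removed, RIG-I and MDA5 kept 1.68 and 1.79, whereas TBK1, MAP3K7 and TAB2 had 0.52, 0.51 and 0.56. Of the TRIM ligases named here for these sensors, TRIM25 and TRIM65 lay lower, with -0.52 and -0.66, and TRIM4 higher, with 0.47 (SE 0.25), each without overlap between groups. The adaptor MAVS, to which TRIM14 binds, had -0.29 (SE 0.23), and IRF3 -0.43 (SE 0.25). RNF135 and STING1, also among the partners in RNA sensing, had -0.30 (SE 0.24) and -0.58 (SE 0.28). Groups did not overlap in the lower direction in MAVS, IRF3, RNF135 and STING1, and in the higher direction also in MDA5 and IKBKE (0.42). Over all genes, 16.2% did not overlap in the lower and 13.8% in the higher direction.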

How the data were processed

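RNA-seq of 6 PC9 libraries was analysed, 3 labelled NC and 3 labelled SHRBM10. The authors deposited estimated counts, TPM and other columns per gene and per RefSeq transcript, with sequencing by BGI-Tech. The build is hg38 per the submitters' processing notes, and the aligner and counter are not given in the sources used here. The deposited TPM values were used only for sh-NC, to compare levels between genes. Of the estimated counts per gene, 87.8% were whole numbers, and the others were rounded. Not used were 14 further per-library columns of the gene table, 18 of the transcript table and 8 columns of group means in each.

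Genes were kept by edgeR's filterByExpr, scaled by TMM and tested with edgeR's quasi-likelihood test (edgeR 4.0.16, limma 3.58.1, R 4.3.3) on all 6 libraries without covariate. The call was an adjusted p (Benjamini-Hochberg) under 0.05 with a log2 fold change over 1 in size, and the unadjusted limit used the raw p. The standard error is the log2 fold change over the square root of F. Alternatives were DESeq2 1.42.0, limma-voom, other scalings and filters, removal of a GC trend and leaving out each library. The function diffSpliceDGE of edgeR tested transcript usage, on rounded transcript counts. The scripts were tested on simulated data. The members, roles and lists come from general knowledge and were chosen with earlier results of these data known. Named with values were TRIM54, each tested interferon-inducible member, members past the unadjusted limit and the 5 with the highest mean TPM, and others in the text were chosen after their values were seen. Promoter windows are from RefSeq (GRCh38.p14) and held 48 of the members. A search for the RING pattern in proteins was not run.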

Additional observations from a re-analysis of the deposited data

How the results depend on the processing

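TRIM54 kept its direction and stayed past the unadjusted limit in each alternative. It was called with DESeq2 (log2 fold change -1.94) and without the filter on low counts (-1.91, adjusted p = 0.049 by edgeR's quasi-likelihood test), each giving 1 member called. Members past the unadjusted limit numbered 2 with the GC trend removed, 10 with no limit on the fold change and 1 to 8 with 1 library left out, and members called 0 to 1. Interferon-inducible members past it numbered 0 with limma-voom and with the GC trend removed, and 0 to 1 with 1 library left out. Their median log2 fold change was 0.39 with library size only, where the median of all genes was 0.16 rather than 0.027, 0.40 with limma-voom, 0.39 without the filter and 0.19 to 0.31 with 1 library left out. That of the others was -0.22 to -0.021 with 1 library left out, and lay above 0 with library size only (0.048), without the filter (0.049) and with upper-quartile factors (0.010). TRIM14 turned to 0.053 with the GC trend removed. With 1 library left out, TRIM14 ranged from -0.34 to 0.0032, TRIM21 from -0.072 to 0.53 and TRIM56 from -0.062 to 0.62. The gene-level F test of transcript usage called 1 member, with no share over all genes beside it. The causes of these shifts were not tested.

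No paired analysis was possible because libraries B and C carry no replicate number, so the groups share fewer than 2 numbers. The 3 libraries per group, the sh-NC replicate 2 that stood apart from its group and the low counts of TRIM54 and TRIM52 limit precision.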
